A study of Mus musculus with 10 samples.

Results

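Notch signalling passes between neighbouring cells: a ligand of the Delta or Jagged kind on one cell binds a Notch receptor on the next, the receptor is cut, and its freed inner domain enters the nucleus and joins the DNA-binding protein RBPJ to switch on target genes of the Hes and Hey families. Fringe enzymes add sugars to the receptors in the Golgi and change which ligands they answer to. In the embryonic tooth, Notch receptors and their ligands are known from the dental epithelium and its layers as well as from the mesenchyme, and the Jagged ligand *Jag2* is known for its part in shaping the crown. The 10 genes described here are the receptors *Notch1*, *Notch2* and *Notch3*, the ligands *Jag1*, *Jag2* and *Dll1*, the fringe enzyme *Lfng* and the target genes *Hes1*, *Hes5* and *Hey1*. They were taken by their Ensembl gene IDs from a table of 27528 genes, and all 10 had a value on every array. For 9 of them the study's own gene lists gave the same ID; *Hey1* is in none of those lists.

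The arrays compared bud stage (E13.5) with cap stage (E14.5) first molars of NMRI mouse embryos, wild type and from an outbred stock, with no treatment at either stage. RNA of 12 to 18 dissected tooth germs was pooled for each of the 10 arrays, 5 per stage, numbered 1, 2, 4, 5 and 6 at both. Each germ holds epithelium, mesenchyme and a little surrounding tissue, so a lower signal can come from fewer cells of a type or from less RNA per cell, and these cannot be told apart here. The arrays were Affymetrix Mouse Exon 1.0 arrays, and the values are log2 signals, so that a difference of 1 is a doubling. The labels do not say whether pools came from separate litters, and p-values measure the spread between pools only.

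From the bud to the cap, 4 of the 10 genes rose and 1 fell (limma, Benjamini-Hochberg adjusted over all 27528 genes, threshold 0.05). *Lfng* rose 2.13-fold, *Notch1* 1.51-fold, *Hes1* 1.32-fold and *Notch2* 1.28-fold, whereas *Hey1* fell 1.35-fold. No difference passed for *Notch3*, *Jag1*, *Jag2*, *Dll1* and *Hes5*. The same call was passed upward by 4.36% of all genes and downward by 3.49%. In the same 4 genes every E14.5 array was above every E13.5 array, and in *Hey1* every one was below, against 4.82% and 4.01% of all genes. The median difference was 0.295 log2 units over the 10 genes and -0.0145 over all genes. Brighter genes were called more often: in a fit of these alone, 1200 of 13764 genes were called higher and 1212 lower. Of the 10 genes, that fit called 5 higher, *Jag2* being added, and 1 lower, with *Dll1* filtered out as dim.

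**Figure D1:**
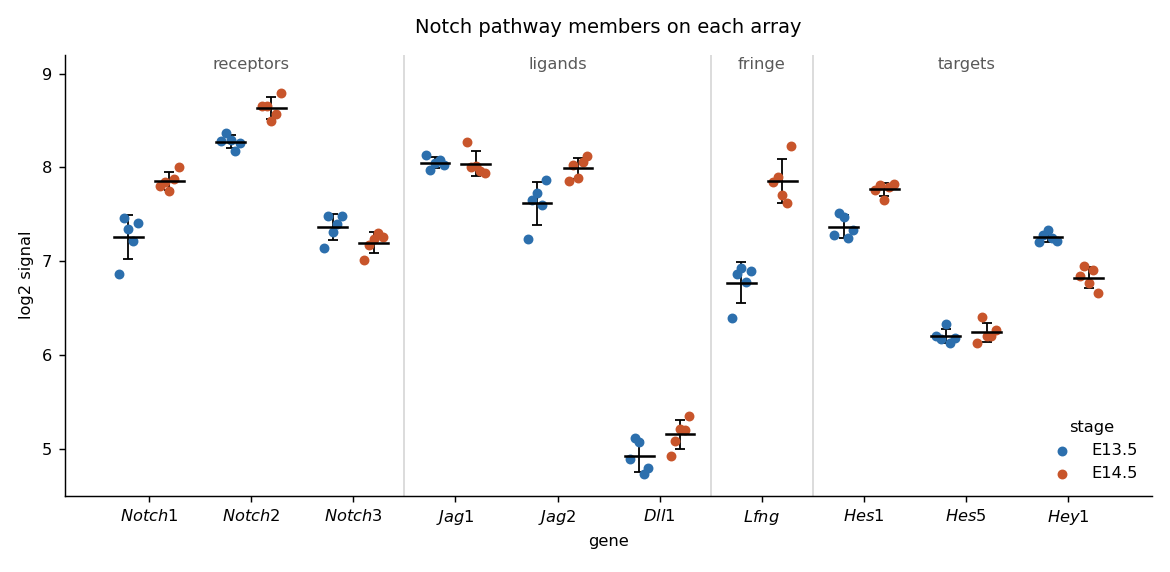
Log2 signal of the 10 genes on each of 5 E13.5 (blue) and 5 E14.5 (orange) arrays, with the mean (line) and SD (bar) of each stage. The stages separate upward in *Notch1*, *Notch2*, *Lfng* and *Hes1*, downward in *Hey1*, and overlap in the other 5 genes; heights of different genes are not comparable, because probes differ in how well they bind.

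The fringe gene *Lfng* (ENSMUSG00000029570) encodes lunatic fringe, an enzyme that lengthens sugars on Notch receptors, and it had the largest difference of the 10. The study lists it as dispensable, meaning expressed in the tooth with no reported tooth effect when lost. Its log2 signal was 6.39, 6.86, 6.93, 6.77 and 6.90 on the E13.5 arrays and 7.84, 7.89, 7.71, 7.61 and 8.23 on the E14.5 arrays. The lowest cap array lay well above the highest bud array, E13.5 replicate 1 was the lowest of all 10, and E14.5 replicate 6 the highest. The means were 6.77 ± 0.22 and 7.86 ± 0.24 (SD, n = 5 arrays per stage), a difference of 1.09 ± 0.13 (SE, limma adjusted p = 0.000298). The remaining fringe genes of the mouse, *Mfng* and *Rfng*, did not pass: *Mfng* differed by 0.098 (limma adjusted p = 0.547) and *Rfng* by 0.081 (limma adjusted p = 0.605).

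*Lfng* and the target gene *Hes5* are shown by the DNA before their starts because, among the promoter windows at hand, theirs hold the short core that RBPJ binds, GTGGGAA, or TTCCCAC read on the opposite strand. The RefSeq windows of build GRCm38.p6 span 250 bases before and 50 after a gene's start, and they exist for 8 of the 10 genes, with a pair of windows for *Dll1*. *Hes1* and *Hey1*, the target genes that changed, had no window and were not searched. The stretches printed are the 250 bases before the start on the plus strand, chr5:140607091-140607340 for *Lfng* and chr4:154960673-154960922 for *Hes5*, with the core in capitals.
Lfng: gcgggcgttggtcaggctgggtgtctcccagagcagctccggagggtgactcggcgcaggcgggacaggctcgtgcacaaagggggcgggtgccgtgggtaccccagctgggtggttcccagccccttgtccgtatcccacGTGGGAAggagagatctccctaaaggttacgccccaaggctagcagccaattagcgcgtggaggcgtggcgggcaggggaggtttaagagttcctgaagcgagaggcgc
Hes5: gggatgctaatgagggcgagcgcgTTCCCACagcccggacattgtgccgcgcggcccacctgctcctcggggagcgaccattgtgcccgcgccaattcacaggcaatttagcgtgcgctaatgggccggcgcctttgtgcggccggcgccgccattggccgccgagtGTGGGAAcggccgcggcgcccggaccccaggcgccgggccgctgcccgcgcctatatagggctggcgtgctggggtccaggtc
In the *Lfng* stretch the core starts 109 bases before the gene. In the *Hes5* stretch it occurs on each strand, 226 and 83 bases before the gene. Of 32851 mouse promoter windows of 300 bases, 2097, or 6.38%, hold the core at least once on either strand, and 84, or 0.256%, hold it more than once. None was found in the windows of *Notch1*, *Notch2*, *Notch3*, *Jag1*, *Jag2* or *Dll1*. Of the 2 genes with the core, *Lfng* rose and *Hes5* did not pass. The N-box bound by Hes proteins, CACNAG or CTNGTG on the opposite strand, is common, being in 42.5% of all windows. It occurs in *Notch1* at 3 places (a pair of them overlapping across the start), in *Notch3* at 2, in *Notch2* and *Lfng* at 1 each and in 1 of the *Dll1* windows at 1, and in none of the windows of *Jag1*, *Jag2* and *Hes5*. A match of letters describes the window and says nothing of binding.

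*Notch1* (ENSMUSG00000026923) rose the most of the receptors. Its log2 signal was 6.86, 7.46, 7.34, 7.21 and 7.41 at E13.5 and 7.80, 7.84, 7.75, 7.87 and 8.01 at E14.5. The 5 cap arrays were close together and all above the bud arrays, among which replicate 1 was low. The mean went from 7.26 ± 0.24 to 7.85 ± 0.098 (SD, n = 5), a difference of 0.60 ± 0.11 (SE, limma adjusted p = 0.00495).

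*Notch2* (ENSMUSG00000027878), the related receptor, rose by less and from a tight group of bud arrays. The values were 8.28, 8.37, 8.29, 8.18 and 8.26 at E13.5 and 8.66, 8.65, 8.49, 8.57 and 8.79 at E14.5, with no overlap. The mean went from 8.28 ± 0.069 to 8.63 ± 0.11 (SD, n = 5), a difference of 0.36 ± 0.070 (SE, limma adjusted p = 0.00771).

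*Notch3* (ENSMUSG00000038146), a receptor known from mural cells of vessels and listed by the study as dispensable, did not pass. It had 7.14, 7.48, 7.31, 7.40 and 7.48 at E13.5 and 7.01, 7.17, 7.24, 7.30 and 7.26 at E14.5. The stages overlapped, and the difference was -0.17 ± 0.084 (SE, limma adjusted p = 0.333). *Notch4*, the last mouse receptor, which is known from endothelium, had a difference of -0.090 (limma adjusted p = 0.585).

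Whether receptors changed by unequal amounts was asked within each array, as the difference between 2 receptors on it, by an exact permutation test, two-sided, in which the arrays were split 5 against 5 in every way. Its smallest p is 0.00794, and p-values were adjusted over 9 pairs of genes sharing a role. *Notch1* gained 0.76 on *Notch3* (exact p = 0.00794, adjusted 0.0143), and *Notch2* gained 0.52 on it (exact p = 0.00794, adjusted 0.0143). For both pairs every E14.5 array was above every E13.5 array. *Notch1* gained 0.24 on *Notch2* (exact p = 0.0159, adjusted 0.0238), with overlapping stages. This last call was lost when E14.5 replicate 2, 4, 5 or 6 was left out (adjusted exact p = 0.0595 each time), and without E13.5 replicate 1 the gain came to 0.14. With medians in place of means the adjusted exact p was 0.0714 for each of the 3 receptor pairs. Many splits then give the same difference, so that test can pass a pair only if all 9 pairs reach its smallest p. It therefore cannot decide whether these calls hold.

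None of the ligands passed. *Jag2* (ENSMUSG00000002799), a Jagged ligand that the study places among the genes needed for normal tooth shape, came nearest. Its signal was 7.24, 7.65, 7.72, 7.60 and 7.87 at E13.5 and 7.86, 8.03, 7.89, 8.06 and 8.12 at E14.5. Only the highest bud array, 7.87, reached above the lowest cap array, 7.86. The mean was 7.62 ± 0.23 and then 7.99 ± 0.11 (SD, n = 5), a difference of 0.37 ± 0.11 (SE, limma adjusted p = 0.0611). It did pass under several other settings, among them a fit with quantile-normalized values (0.41, limma adjusted p = 0.0309) and one without E13.5 replicate 6, the highest bud array (0.44, limma adjusted p = 0.0325).

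*Jag1* (ENSMUSG00000027276), the related Jagged ligand, had the smallest difference of the 10 genes. It had 8.14, 7.97, 8.05, 8.08 and 8.03 at E13.5 and 8.27, 8.01, 8.02, 7.96 and 7.94 at E14.5. E14.5 replicate 1 stood above all other arrays and the rest of the cap arrays lay within or just below the bud range. The difference was -0.011 ± 0.074 (SE, limma adjusted p = 0.973), and its sign turned with quantile normalization and with 3 of the 10 arrays left out.

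*Dll1* (ENSMUSG00000014773), the Delta-like ligand, was dim, with stage means of 4.92 ± 0.17 and 5.15 ± 0.16 (SD, n = 5) where array medians over all genes ran from 5.06 to 5.22. Its values were 4.89, 5.11, 5.07, 4.74 and 4.79 at E13.5 and 4.92, 5.08, 5.21, 5.20 and 5.34 at E14.5, and the stages overlapped. The difference was 0.23 ± 0.099 (SE, limma adjusted p = 0.228). The Delta-like ligands outside the 10 were not past the threshold either, with 0.053 for *Dll3* (limma adjusted p = 0.835) and -0.16 for *Dll4*, a ligand known from endothelium (limma adjusted p = 0.495). With arrays left out in turn, *Dll3* ran from 0.0039 (without E14.5 replicate 4) to 0.098 (without E14.5 replicate 1), and *Dll4* from -0.20 to -0.078 (without E13.5 replicate 1).

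Between ligands, no unequal change passed over the 9 pairs. *Jag1* changed by -0.39 relative to *Jag2* (exact p = 0.0476, adjusted 0.0612) and by -0.24 relative to *Dll1* (exact p = 0.167, adjusted 0.188), and *Jag2* by 0.14 relative to *Dll1* (exact p = 0.333, adjusted 0.333). That last value came to 0.056 without E13.5 replicate 1 and to 0.24 without E13.5 replicate 6. Without E14.5 replicate 1, where *Jag1* stood apart, its change relative to *Jag2* came to -0.48 (adjusted exact p = 0.0204) and that relative to *Dll1* to -0.36 (adjusted exact p = 0.0357). The former also passed without E13.5 replicate 6, at -0.45 (adjusted exact p = 0.0408).

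The target genes went in different directions. *Hes1* (ENSMUSG00000022528), a basic helix-loop-helix repressor that Notch switches on in many tissues, rose. Its signal was 7.28, 7.52, 7.47, 7.24 and 7.33 at E13.5 and 7.76, 7.81, 7.65, 7.79 and 7.82 at E14.5, with every cap array above every bud array. The mean went from 7.37 ± 0.12 to 7.77 ± 0.069 (SD, n = 5), a difference of 0.40 ± 0.072 (SE, limma adjusted p = 0.00468).

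*Hey1* (ENSMUSG00000040289), a repressor of the related Hey family, fell. The values were 7.20, 7.28, 7.33, 7.25 and 7.22 at E13.5 and 6.84, 6.95, 6.76, 6.90 and 6.66 at E14.5. The bud arrays were tightly grouped and all cap arrays lay below them. The mean went from 7.26 ± 0.051 to 6.82 ± 0.12 (SD, n = 5), a difference of -0.43 ± 0.068 (SE, limma adjusted p = 0.002).

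*Hes5* (ENSMUSG00000048001), a target best known from neural progenitors and listed by the study as dispensable, had overlapping stages. It had 6.21, 6.17, 6.32, 6.12 and 6.19 at E13.5 and 6.13, 6.41, 6.20, 6.20 and 6.27 at E14.5. E14.5 replicate 2 was the highest, and the other 4 cap arrays lay within the range of the bud arrays. The difference was 0.036 ± 0.069 (SE, limma adjusted p = 0.886), and without E14.5 replicate 2 it was -0.0053.

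Within arrays, all 3 pairs of targets passed as changed by unequal amounts when means were compared. When medians took their place the adjusted exact p was 0.0714 each, and, as for the receptors, that test could not decide. *Hes1* gained 0.83 on *Hey1* and 0.36 on *Hes5*, and *Hes5* gained 0.47 on *Hey1* (exact p = 0.00794 each, adjusted 0.0143). In each pair the stages did not overlap. The widest shift of the 9 pairs was that of *Hes1* minus *Hey1*, from 0.11 ± 0.090 in the bud to 0.94 ± 0.12 in the cap (SD, n = 5).

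**Figure D2:**
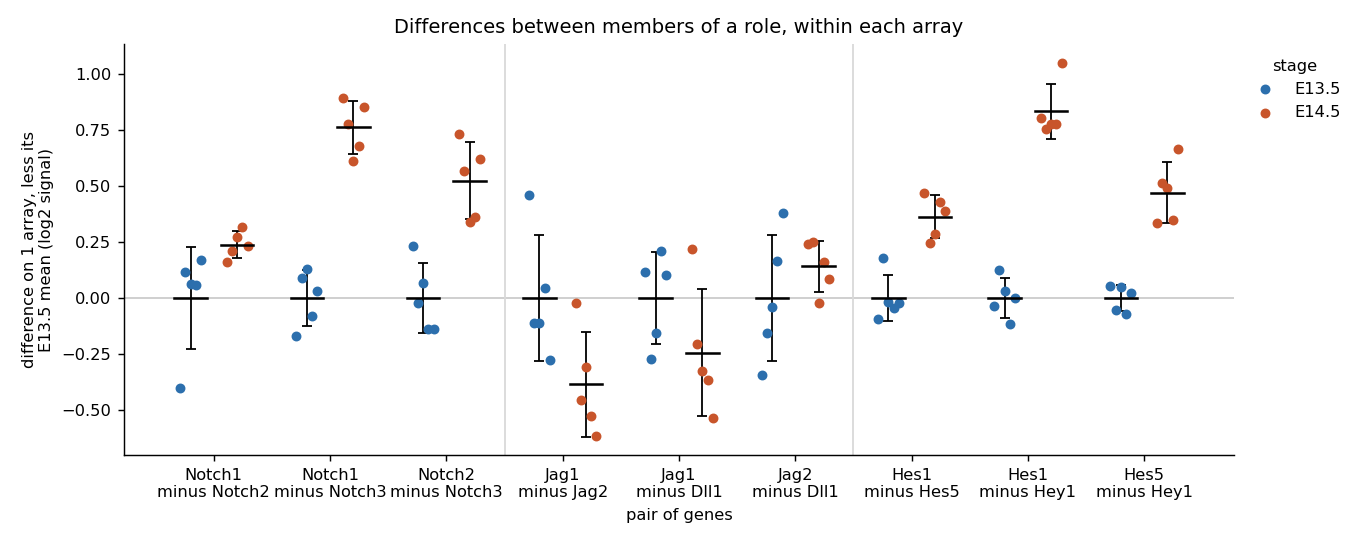
Difference in log2 signal between 2 genes of the same role on each array, less the mean of that difference over the E13.5 arrays, for 5 E13.5 (blue) and 5 E14.5 (orange) arrays with the mean (line) and SD (bar). Points above 0 at E14.5 mean that the first-named gene gained on the second, by 0.76 for *Notch1* over *Notch3* and by 0.83 for *Hes1* over *Hey1*.

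The study assigns 26 further genes to the Notch pathway, of which 25 have a value (*Numbl* has none under its listed ID). Of these 25, 2 rose, 1 fell and 22 did not pass, where 4.36% of all genes were called higher and 3.49% lower. In a fit of brighter genes alone, 1200 of 13764 genes were called higher and 1212 lower. That fit called 3 of the other Notch genes higher and 1 lower. Neither the rises nor the fall are therefore read as a result about these genes. Their median difference was -0.0091, against -0.0145 over all genes. Among those that rose, *Ncstn*, which encodes nicastrin, a subunit of the gamma-secretase that cuts Notch, differed by 0.27 ± 0.070 (SE, limma adjusted p = 0.035). This call was lost with arrays centred on their medians (limma adjusted p = 0.104) and in 8 of 10 fits with 1 array left out, and with median centring none of the other Notch pathway genes was called higher. *Maml2*, a coactivator of the nuclear complex, fell from 7.32 ± 0.17 to 6.86 ± 0.14 (SD, n = 5), a difference of -0.46 ± 0.096 (SE, limma adjusted p = 0.011). It passed in every fit with 1 array left out. *Rbpj* itself differed by -0.21 (limma adjusted p = 0.36) with overlapping stages, a value that came to -0.14 without E13.5 replicate 1 and to -0.30 without E13.5 replicate 2 (limma adjusted p = 0.0652).

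The 4 genes of ligand endocytosis (*Mib1*, *Mib2*, *Neurl1a*, *Neurl1b*) and the 4 modulators (*Numb*, *Itch*, *Dtx1*, *Fbxw7*) held no gene past the threshold. *Neurl1b*, a ubiquitin ligase of ligands, had cap arrays that were all above its bud arrays, with a difference of 0.245 (limma adjusted p = 0.0636). Of the 6 genes of receptor cleavage *Ncstn* alone passed, and of the 4 of the nuclear complex *Maml2* alone.

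**Figure D3:**
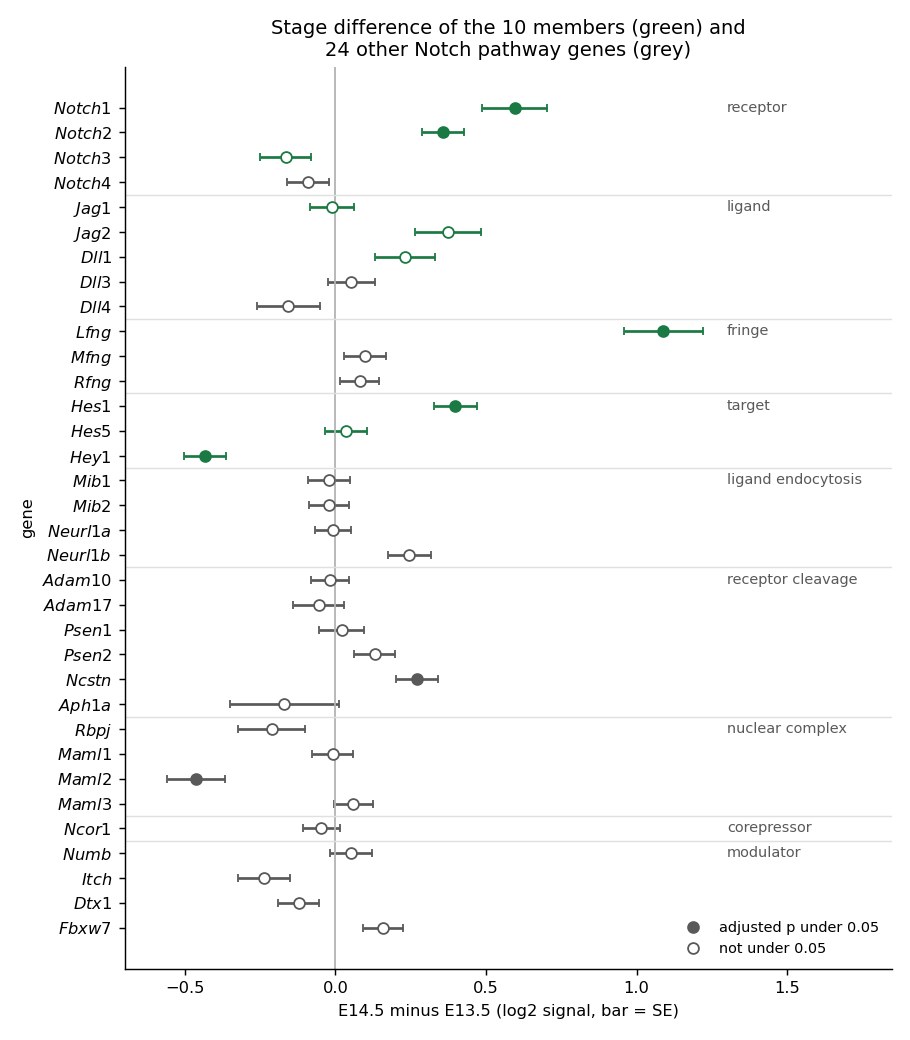
Stage difference (E14.5 minus E13.5, log2 signal) with its SE for the 10 genes (green) and other Notch pathway genes (grey), grouped by role, with filled points for a limma adjusted p under 0.05. *Lfng* is farthest to the right at 1.09, and *Maml2* and *Hey1* are farthest to the left at -0.46 and -0.43.

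Markers of the tissues in the pools moved between the stages too. Of 7 epithelial markers, 5 rose (such as *Cdh3* and *Perp*) and 2 did not pass, among them *Foxi3* (limma adjusted p = 0.0513), and their summed signal ran from 1484 to 2403 at E13.5 and from 3307 to 3918 at E14.5 on the linear scale. Of 8 mesenchymal markers 7 fell (*Runx2* did not pass), with sums of 2511 to 2952 and then 1301 to 1425. Of 10 genes of the enamel knot, the signalling centre of the cap, 8 rose, with sums of 586 to 792 and then 1446 to 1799. Of 5 vessel genes, *Cspg4* and *Lama4* passed in opposite directions, and the sums were 453 to 618 and then 453 to 468. The vessel list includes *Dll4* and *Notch4*, so it is not independent of the Notch pathway genes described above. Of 5 bone genes 2 rose, 1 fell and 2 did not pass, with sums of 1566 to 1848 and then 1178 to 1403. Unlike the sums, which the brightest genes of a list dominate, the medians of the vessel and bone lists were higher at E14.5. They rose by 0.55 (exact p = 0.00794) and 0.69 (exact p = 0.0238), but each followed the middle gene of a short list. The vessel median was *Cspg4* itself on every array but E14.5 replicate 6. The bone median was *Bglap* at E13.5 and mostly *Spp1* at E14.5. The median of the single genes' differences was -0.0898 for the vessel list and 0.185 for the bone list. No defining marker of epithelium or mesenchyme was near the bottom of the array range: the dimmest had means over all arrays of 6.08 (*Lama3*) and 7.03 (*Dlx1*).

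**Figure D4:**
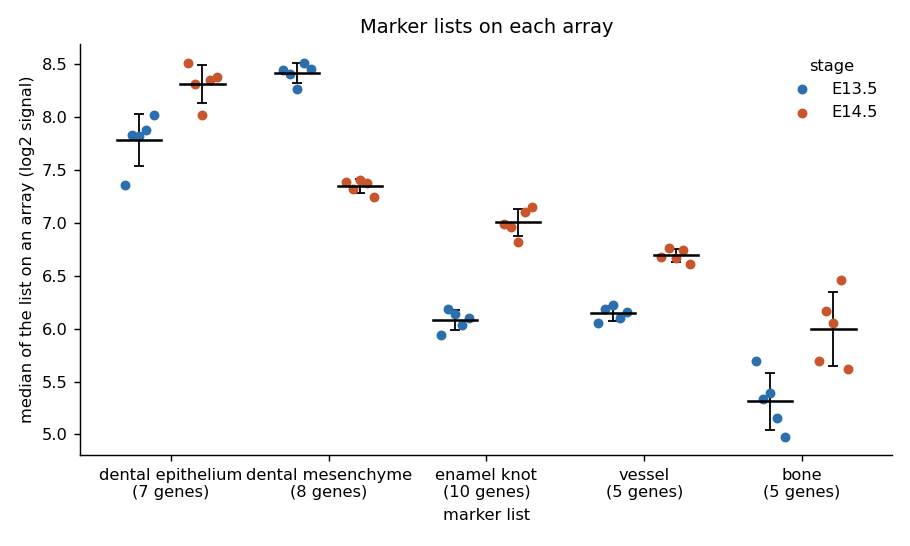
Median log2 signal of each marker list on 5 E13.5 (blue) and 5 E14.5 (orange) arrays, with the mean (line) and SD (bar) of each stage. The epithelial and enamel knot medians were higher at E14.5 by 0.53 and 0.92, and the mesenchymal median was lower by 1.07. The vessel and bone medians were higher by 0.55 and 0.69. The vessel median was mostly the value of *Cspg4*, and the bone median that of *Bglap* at E13.5 and mostly of *Spp1* at E14.5.

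The 10 genes were therefore also read relative to those medians on the same array, as a description with no test, since this reading was added after their values had been seen. Relative to the epithelial median, *Lfng* went from -1.01 ± 0.10 to -0.45 ± 0.24 (SD, n = 5), a change of 0.56 with no overlap between the stages. For *Notch1*, *Notch2* and *Hes1* the stages overlapped on this scale, with changes of 0.064, -0.17 and -0.13, as they did for *Jag2* (-0.16), *Dll1* (-0.30) and *Hes5* (-0.50). *Hey1*, *Notch3* and *Jag1* were lower relative to that median on every cap array, by changes of -0.96, -0.70 and -0.54.

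The mesenchymal median fell by more than any of the 10 genes, so relative to it all 10 had to be higher at E14.5, with changes from 0.64 for *Hey1* to 2.16 for *Lfng*. The part of a changed share of tissues in the differences of the 10 genes was not tested.

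E13.5 replicate 1 carried the lowest bud value of 5 of the 10 genes (*Notch1*, *Notch3*, *Jag2*, *Lfng* and *Hey1*) and of 6 of the 7 epithelial markers, against 22.6% of all genes. Without that array *Notch1*, *Notch2*, *Lfng*, *Hes1* and *Hey1* all kept their calls.

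For each of these 5 genes, the 3 most like it were sought among 382 other genes with a symbol in the study's lists, by the root mean square difference of profiles centred on their own means over the 10 arrays. Closest to *Lfng* were *Tgfb1* (0.141), *Reln* (0.172) and the enamel knot marker *Cdkn1a* (0.192). Closest to *Notch1* were *Fzd1* (0.0814), *Nectin1* (0.0864) and *Sdc4* (0.0891). *Relb* was closest to both *Hes1* (0.0431) and *Notch2* (0.0638), followed by *Wnt4* (0.0666) and *Tcf7* (0.07) for *Hes1* and by *Acvr1* (0.0676) and *Wnt16* (0.0729) for *Notch2*. Closest to *Hey1* were *Kif3a* (0.109), the mesenchymal marker *Dlx1* (0.111) and *Bmp4* (0.113). Genes with stage differences of like size and sign come out near each other on this measure.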

How the data were processed

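Wild type tooth germs were hybridised to 10 single-colour arrays. The authors normalized the signals with aroma.affymetrix and a Brainarray custom CDF (version 23), which groups probes by Ensembl gene, and deposited a single value for each gene on each array. These deposited values ran from 1.30 to 12.83, and were read as log2 signals; neither the log base nor the background correction is given in the sources used here. Scanner files and detection calls were not used here, and the number of arrays limits the precision. Groups came from the labelled embryonic day.

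Stage differences (E14.5 minus E13.5) were tested by lmFit and eBayes of limma 3.58.1 under R 4.3.3 (two-sided, no covariate, on all 10 arrays), p-values being Benjamini-Hochberg adjusted over 27528 genes and a threshold of 0.05. Pairs of genes were compared by an exact two-sided permutation test over all splits of 5 and 5 arrays. Both were tested on simulated data. The remaining steps used pandas 2.3.3, numpy 2.4.6 and scipy 1.17.1 in Python 3.11.15, and plots matplotlib 3.10.9.

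Genes named were the 10 genes, the other Notch genes past the threshold, *Dll3*, *Dll4*, *Notch4*, *Mfng*, *Rfng* and *Rbpj*, the 3 genes most like each called gene, and markers; *Numbl*, *Neurl1b* and the genes listed by role were named after their values were seen. The genes and lists were chosen with earlier results of these data known. Promoter windows came from RefSeq (GRCm38.p6), matched by symbol for 8 genes; the rule had been to print only those of called target genes, which have no window in the table, and the *Lfng* and *Hes5* windows were chosen after the search. Protein sequences were not used here. A few genes are not reported here; they stay in the counts and medians of lists but were left out of the likeness search and the named values. Alternatives were quantile normalization, median centring, a replicate block, array weights, trended and robust eBayes, the array's SD as a covariate, a filter on dim genes, each array left out in turn, and medians in place of means.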

Additional observations from a re-analysis of the deposited data

Results flagged for a closer look

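In 8 of 98 sets of 5 arrays, taken over the 10 genes, the other named Notch genes and the markers, 1 array stood apart by Dixon's ratio of its gap to the whole range, above the critical value of 0.71. Chance sets apart about 1 in 20, or 4.9 of these sets. Of the 10 genes, *Jag1* was 8.27 on E14.5 replicate 1, where the other cap arrays had 7.94 to 8.02 (ratio 0.775), and *Lfng* was 6.39 on E13.5 replicate 1, where the other bud arrays had 6.77 to 6.93 (ratio 0.714). The same bud array was low in the epithelial marker *Foxi3* (7.43, others 8.84 to 9.18). E14.5 replicate 6, the array with the highest *Lfng*, was high in the epithelial markers *Perp* (10.47, others 10.18 to 10.24) and *Foxi3* (10.0001, others 9.68 to 9.71). The mesenchymal marker *Lhx6* was 7.999 on E13.5 replicate 4 (others 8.14 to 8.17) and *Dlx1* was 6.81 on E14.5 replicate 1 (others 6.71 to 6.73). *Cdkn1a*, which marks the enamel knot, was 6.91 on E14.5 replicate 4 (others 7.26 to 7.36). Why these arrays stood apart was not tested.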

How the results depend on the processing

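*Notch1*, *Notch2*, *Lfng*, *Hes1* and *Hey1* kept their direction and their call in every alternative run, with limma adjusted p up to 0.0179, 0.0283, 0.0014, 0.0182 and 0.008. *Jag2* passed with quantile normalization (0.41), the replicate block (0.37, limma adjusted p = 0.0288), array weights (0.41, limma adjusted p = 0.00719), trended and robust eBayes (0.37) and without dim genes (0.37), and with single arrays left out it ran from 0.28 to 0.44. *Dll1*, itself removed by the filter on dim genes, passed with array weights (0.33, limma adjusted p = 0.0408). *Jag1* turned sign with quantile normalization (0.026) and ran from -0.069 to 0.013 with arrays left out, turning without E13.5 replicate 1 (0.010), E14.5 replicate 5 (0.0078) and E14.5 replicate 6 (0.013); *Hes5* ran from -0.0053, without E14.5 replicate 2, to 0.067. No other call on the 10 genes changed under the block. Whether equal numbers mark a shared litter or day is not stated. Deviations of same-numbered arrays correlated at 0.393, -0.0792, 0.513, 0.0304 and 0.283 (replicates 1, 2, 4, 5 and 6), mixed values that did not meet the criterion of over 0.1 in every pair, and 2 of 5 correlated best with their own number, so the fit without the block was kept; the block called 1157 genes higher and 920 lower in place of 1201 and 961. Array weights called 1939 and 1972. Of the other Notch genes, those higher came to 0 with median centring, to 3 with array weights, the array's SD as a covariate or no dim genes, and to 0 to 2 with arrays left out, and those lower to 2 with array weights and to 1 to 2. With medians in place of means, the exact test gave an adjusted p of 0.0714 for each of the pairs that had passed. It could pass a pair only if all 9 reached its smallest p, so it cannot decide whether these calls hold. The differences of medians were 0.17 for *Notch1* and *Notch2*, 0.74 for *Notch1* and *Notch3* and 0.59 for *Notch2* and *Notch3*. For the targets they were 0.41 for *Hes1* and *Hes5*, 0.78 for *Hes1* and *Hey1* and 0.47 for *Hes5* and *Hey1*. With arrays left out, *Notch1* gained 0.14 to 0.28 on *Notch2*, and *Jag1* ran from -0.48 to -0.27 relative to *Jag2* and from -0.36 to -0.17 relative to *Dll1*, and *Jag2* from 0.056 to 0.24 relative to *Dll1*. The causes of these shifts were not tested. Without detection calls, how far a dim gene lies above background is unknown.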
